A study of Mus musculus with 8 samples.

Results

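Oxidative phosphorylation genes encode the protein complexes of the inner mitochondrial membrane that pass electrons to oxygen and use the resulting proton gradient to make ATP. Here they were taken by gene symbol: Nduf genes for complex I (NADH dehydrogenase), Sdh genes for complex II (succinate dehydrogenase), Uqcr genes for complex III (the cytochrome bc1 complex), numbered Cox genes for complex IV (cytochrome c oxidase) and Atp5 genes for complex V (ATP synthase). Of 24222 gene symbols counted, 84 met this rule, with 37 in complex I, 4 in complex II, 8 in complex III, 18 in complex IV and 17 in complex V. The rule itself reads symbols only and no measured value; it was set with earlier results of these data known. Ndufa4, Atp5s and Atp5sl belong by symbol but not in every classification by function, and their part in each median is given below.

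The cells were haematopoietic stem cells, which self-renew and give rise to all blood cells. They came from bone marrow of C57BL6 mice and were isolated by flow cytometry. The 2 groups were 4 WT control mice and 4 mice (KO) with Kdm4a, Kdm4b and Kdm4c knocked out, both sorted 2 weeks after induction of the knockout. These 3 genes encode demethylases that remove methyl groups from histones. The sort markers, the inducing agent and Cre line, the deleted exons and the age of the mice are not given in sources used here. Each mouse gave 1 library of amplified cDNA without molecular identifiers, so counts are of reads and counting intervals would cover counting error only.

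Complex I takes electrons from NADH and complex II takes them from succinate. Both hand them through ubiquinone to complex III, from which cytochrome c carries them to complex IV, where oxygen is reduced. Complexes I, III and IV pump protons, and complex V lets them back through its membrane ring to drive ATP synthesis in its F1 head. Resting haematopoietic stem cells are known for a heavier reliance on glycolysis than their dividing progeny. Subunits encoded by mitochondrial DNA were searched for under 26 symbols. None was among the gene symbols counted, so every value below is for a nuclear gene.

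Total counts were 3594315 to 6044289 per WT library and 5541504 to 14872493 per KO library. Levels are given as CPM, counts scaled to a common library total, here after TMM normalisation. The targeted genes were lower in every KO library than in every WT library: Kdm4a at 36.3 ± 9.56 against 20.3 ± 3.86 CPM (SD, n = 4 mice each), Kdm4b at 10.2 ± 2.44 against 3.73 ± 1.79 CPM and Kdm4c at 115 ± 22.7 against 36.0 ± 10.6 CPM (edgeR adjusted p = 2.05e-05 for Kdm4c, 0.132 for Kdm4a and 0.142 for Kdm4b). All 12 stem cell markers had counts, and their summed level was 4733 to 5023 CPM in WT and 3881 to 4318 CPM in KO libraries. Their median log2 fold change, KO against WT, was −0.27, and 1 of 12 had a fold change above 1. EdgeR called 0 of 12, and DESeq2 called 2, beside 0.583% and 1.34% of all genes tested. Without overlap between groups, 4 of 12 were lower in KO and 1, Ly6a, was higher, beside 2.93% and 2.88% of all genes. The haemoglobin genes Hba-a1 and Hbb-bs were listed at 0. Summed neutrophil and monocyte markers reached at most 73.6 CPM, those of lymphocytes 29.4 CPM (Ncr1 at 0) and those of mast cells and basophils 9.51 CPM (Prss34 at 0). Other lists also held genes that moved with the groups, read against the 0.583% of all genes tested that were called. All 6 megakaryocyte markers were tested and summed to 315 to 429 CPM in WT and 525 to 607 CPM in KO, with 2 of 6 called, both higher; Pf4 had a log2 fold change of −0.43 (edgeR adjusted p = 0.376). Erythroid markers summed to 2253 to 2462 CPM in WT and 1306 to 1506 CPM in KO, nearly all of it Car2, the 1 called gene of 5 tested. Macrophage and dendritic cell markers summed to overlapping levels, 14.5 to 28.6 CPM in WT and 18.9 to 31.0 CPM in KO, with Siglech at 0. Of the 3 tested, Mrc1 was called lower (6.09 ± 3.96 CPM in WT, 0.989 ± 0.602 in KO) and Cd68 higher (6.58 ± 3.31 and 19.9 ± 4.19), while Vcam1 was at 7.75 ± 1.63 and 2.69 ± 0.603. None of these 3 overlapped between groups, 2 lower and 1 higher, beside 2.93% of all genes lower and 2.88% higher without overlap. The part of these shifts in the results below was not tested.

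Nuclear respiratory factors, ETS factors of the GABP family and the oestrogen-related receptor Esrra are known activators of these genes, so the promoters were searched for their letters. RefSeq promoter windows of GRCm38.p6, 250 bases before to 50 after a start, matched 67 of the 84 genes with 73 windows. The stretches below show, for each complex that had one, the match to the NRF1 core GCATGCGC lying wholly before the start and nearest to it. Each is printed 5′ to 3′ on the gene's strand with the core, read on either strand, in capitals.
Ndufa8, complex I, minus strand, chr2:36049339-36049357: tcgctggagacGCATGCGC
Sdhb, complex II, plus strand, chr4:140961206-140961235: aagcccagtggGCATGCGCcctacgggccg
Cox6a1, complex IV, minus strand, chr5:115349100-115349129: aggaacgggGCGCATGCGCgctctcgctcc
Atp5g2, complex V, minus strand, chr15:102671069-102671098: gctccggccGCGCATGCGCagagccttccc

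Together 10 of 73 member windows (13.7%) held the NRF1 core on either strand, against 5.38% of the windows of all genes tested and 2.71% of all windows in the table. The 10 genes were Atp5g2, Atp5k, Atp5l, Cox6a1, Ndufa6, Ndufa8, Ndufa11, Sdhb, Uqcr11 and Uqcrc1, so all 5 complexes had at least 1. The GABP (ETS) core CCGGAAG was in 21.9% of member windows, 18.1% of the windows of tested genes and 8.86% of all windows. The YY1 core AAGATGG was in 16.4%, 7.23% and 6.34% of the same sets. The Esrra core AAGGTCA was in 10.96%, 3.13% and 4.72%. The SP1 GC box GGGCGG went the other way against tested genes, with 37.0% of member windows, 62.6% of tested windows and 35.7% of all windows. In the member windows 1 pair of matches to different motifs overlapped, a GABP core with a GC box. A match describes letters in a window and not binding, which was not measured.

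In WT stem cells 2 genes of the ATP synthase F1 head, Atp5b and Atp5a1, stood highest. Levels between genes are compared as CPM per kilobase of annotated exon. Atp5b, the catalytic beta subunit, was at 342 ± 60.1 (SD, n = 4 mice) and Atp5a1, its alpha partner, at 290 ± 32.1. Per kilobase Atp5b was 1.56, 0.917, 1.29 and 1.02 times Atp5a1 in WT mice 1 to 4, so this order did not hold in every mouse; with the length of the principal transcript the ratio was 1.598 to 2.71 in the same mice. Sdhd, a membrane anchor of succinate dehydrogenase, was at 138, Atp5c1, the gamma shaft of the F1 head, at 131, and Sdha, the flavin subunit, at 113, and their order depended on the length used. With the principal transcript Atp5c1 was at 214, Atp5g3, a membrane ring subunit, at 198, Sdha at 161 and Sdhd at 138. The other F1 genes were lower, Atp5d at 29.6 and Atp5e at 16.2 per kilobase of exon. The lowest genes that passed the filter were Atp5g2, another ring subunit, at 0.911 and Ndufb2, an accessory subunit of complex I, at 0.918. The place of Ndufb2 depends on its annotated length, 5628 bases of exon and 4371 in the principal transcript. Without length scaling Ndufb2 was at 5.17 CPM, above Ndufb4 (4.42), Ndufa11 (3.67) and Uqcr11 (3.59).

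**Figure D1:**
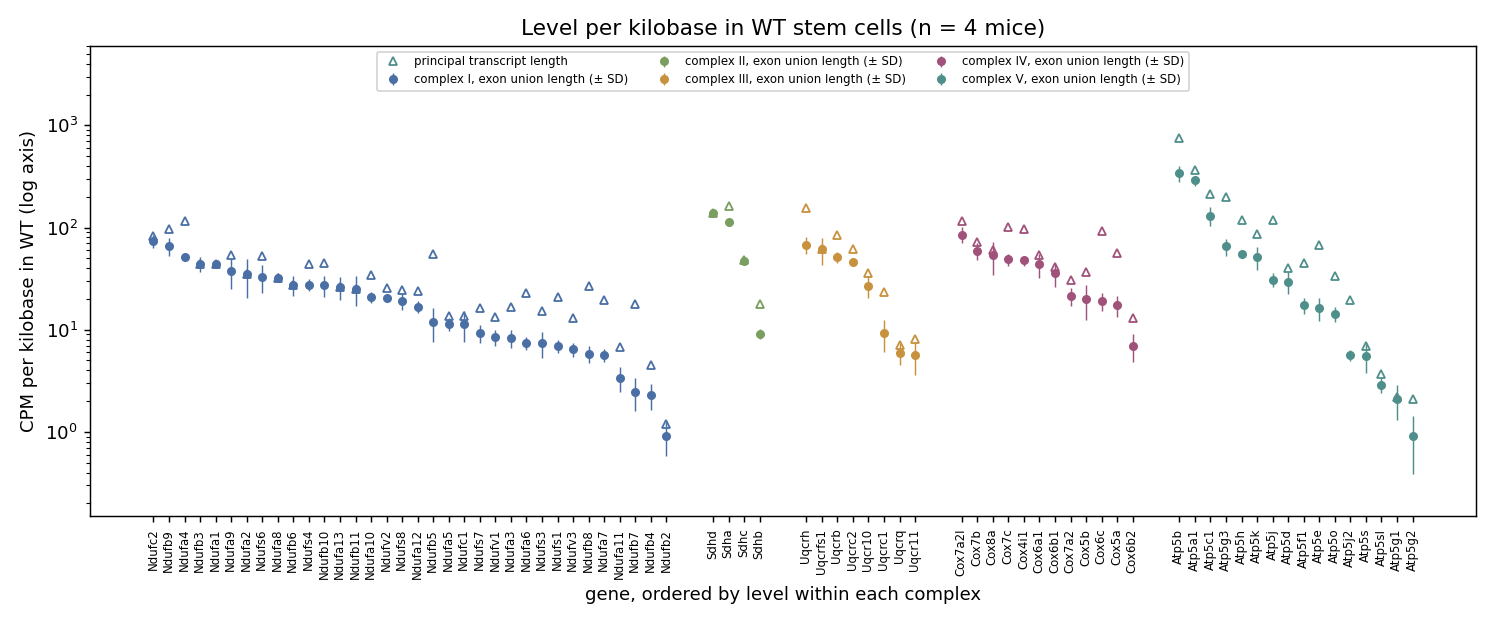
Mean level of 74 of the 75 tested genes in WT stem cells (n = 4 mice) on a log axis, ordered within each complex; circles with SD bars use the exon union length and open triangles the principal transcript length. Atp5b (342) and Atp5a1 (290) stand at the top, and Atp5g2 (0.911) and Ndufb2 (0.918) at the bottom.

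The members' median was 25.2 CPM per kilobase, against 6.90 over all tested genes with a known length. By complex the medians were 18.9 for complex I, 80.4 for complex II, 36.3 for complex III, 39.6 for complex IV and 23.5 for complex V. With the principal transcript length they were 25.8, 93.1, 48.6, 58.3 and 56.1, so that complex V moved from below complexes III and IV to between them. Subunits of a complex are present in fixed proportion in the protein, apart from the repeated F1 and ring subunits. The transcripts of tested genes spanned 80.9-fold in complex I, 15.02-fold in complex II, 12.2-fold in complex III and 12.3-fold in complex IV. The low end in complex I was Ndufb2, with the long annotated exons given above. The ends in complex IV were Cox6b2, known as a testis form, and Cox7a2l, a supercomplex assembly factor. That span is therefore not one between subunits of fixed proportion. In complex V the span was 375-fold. The lowest tested gene of complex V, Atp5g2, is also the one with most of its sequence in a copy elsewhere, as given below. With the length of the principal transcript (875 bases in the median, against 3078 over all genes) the members' median rose to 36.5 and Atp5b stayed highest at 756, with Ndufb2 lowest of those tested at 1.18.

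In families with tissue-type paralogues, the widely expressed form carried nearly all reads. Cox4i1 was at 47.9 CPM per kilobase in WT, while Cox4i2, the lung and hypoxia form, had 2 to 5 counts per WT library and 1, 1, 21 and 10 in KO mice 1 to 4. Cox6a1 was at 43.5, and its heart and muscle paralogue Cox6a2 had 1 count in WT mouse 4 and 0 in the others. Cox8a was at 53.4, with Cox8c at 0 in all libraries and Cox8b at 1 count in KO mouse 3. Cox7b was at 59.2, and Cox7b2 had 2 counts in WT mouse 3 only. For Cox7a the muscle form Cox7a1 had at most 1 count in the other libraries and 14 in KO mouse 3, the deepest library, whereas Cox7a2 was at 21.5 and Cox7a2l, a supercomplex assembly factor, at 85.3. The exception was Cox6b2, known as a testis form, which passed the filter at 6.91 ± 2.10 beside 35.6 for Cox6b1.

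Among the ring subunits, whose mature peptide is the same for all forms, Atp5g3 was at 143 CPM in WT, Atp5g1 at 10.4 and Atp5g2 at 1.53. Per kilobase of exon the values were 65.6, 2.11 and 0.911 CPM, with 4912 bases of exon for Atp5g1. Ndufa4 was at 51.3, and its hypoxia-inducible relative Ndufa4l2 had 1 count in WT mouse 1. The other genes under the filter were Ndufs5, at 0 in all libraries, and Atp5l, a membrane subunit of ATP synthase, with 1 to 16 counts. Ndufs5 and Atp5l encode subunits of all forms of their complexes. In the annotated transcripts, 31.1% of the 50-base words of Ndufs5 also lay in a processed pseudogene, BC002163 on chromosome 16, which had 3 to 9 counts per library. For Atp5l 68.5% of words lay in 13 other genes, 12 of them pseudogenes, and for Atp5g2 87.4% lay in Gm10175 on chromosome 7. How multiply placed reads were counted is not given in sources used here. At least 10% of words were shared by 18 of 84 members, and their levels are uncertain. Among them were Cox7c (53.0%), Atp5h (47.9%), Uqcrb (43.2%), Ndufb4 (37.0%), Ndufs3 (35.8%), Ndufa12 (26.2%), Cox5b (25.9%), Cox6a1 (12.3%) and Atp5g1 (11.6%). No words were shared by 49 members.

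The comparison of KO with WT asked whether loss of the 3 demethylases changed these transcripts. In the fit over all 11498 genes tested, 75 members passed the filter and 0 of 75 passed an adjusted p of 0.05 in edgeR's quasi-likelihood test, against 0.583% of all genes (67, with 29 higher and 38 lower). At an unadjusted p under 0.05, 6 of 75 members were higher in KO and 0 lower, against 5.76% of all genes higher and 5.44% lower. DESeq2 called 0 members and 1.34% of all genes. Limma voom with sample weights called 1 member, Atp5b, and 0.644% of all genes. The levels of 2 of 75 members, Atp5j2 and Ndufa10, did not overlap between groups and were higher in KO, and 0 were lower, against 2.88% and 2.93% of all genes. The shares of members called or not overlapping were therefore near the background. The count over all genes was 44 without WT mouse 2, 35 without WT mouse 3 and 44 without KO mouse 4.

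The tested members lay slightly above the centre of all genes. In these bulk samples, a change in cell mixture and a change in RNA per cell cannot be told apart. Their median log2 fold change, KO against WT, was 0.14, with quartiles of −0.02 and 0.34, beside 0.00 over all genes tested. The fold change was above 1 for 51 of 75 members (68.0%) and for 50.2% of all genes. The full range was −0.41 to 0.61, and 4 members exceeded a 1.5-fold difference, all higher in KO. The median SE of a single member was 0.24 on the same scale; it describes single genes and not the error of the median. Members with under 10% shared words had a median of 0.14 (59 genes), and those with more had 0.14 (16 genes). Without KO mouse 1 the median was 0.09 and 47 of 75 (62.7%) were above 1, against 49.2% of all genes. Unadjusted p under 0.05 was then reached by 4 members higher and 2 lower, against 6.27% and 6.14% of all genes.

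**Figure D2:**
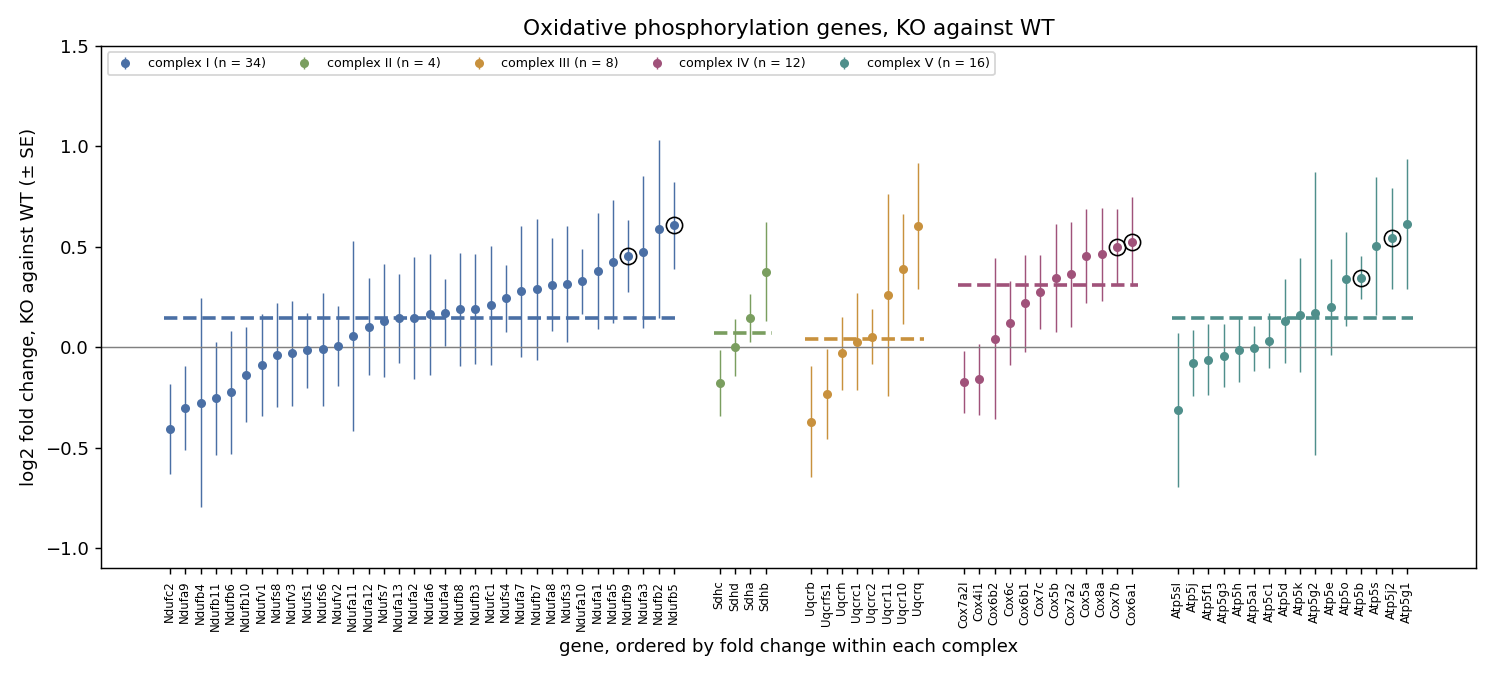
Log2 fold change, KO against WT, with its standard error for 74 of the 75 tested genes, ordered within each complex; dashed lines are the medians of the complexes over all tested genes and black rings mark the 6 genes with an unadjusted p under 0.05. The medians run from 0.04 in complex III to 0.31 in complex IV, and 0 of 75 genes passed the adjusted threshold.

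Of complex I, 35 of 37 genes were tested, 24 had a fold change above 1, and 0.14 was the median on the log2 scale. Its 7 catalytic core genes, which carry the flavin and iron-sulfur centres, had a median of 0.01 and a range of −0.09 to 0.31. Among them Ndufv2, the gene at that median, was at 43.8 ± 2.95 CPM in WT and 44.3 ± 5.90 in KO. The 3 smallest p of the complex were in accessory subunits, which surround the core and were most of the tested genes. Whether core and accessory genes differ was not tested. In CPM, Ndufb5 stood at 33.1, 61.8, 57.8 and 87.0 in the WT group and 101, 66.1, 103 and 93.0 in the KO group, each in the order of mice 1 to 4 (as below). WT mouse 1 was far below the rest and WT mouse 4 lay within the KO range. Its log2 fold change was 0.61 (SE 0.22, edgeR adjusted p = 0.261). Exons of Ndufb5 (chromosome 3, 32736990 to 32751566, plus strand) overlap the antisense gene Mrpl47 over 12.3% of their length. Without strand information the reads of such genes cannot be told apart. An antisense overlap of at least 10% was present in 10 members, among them Cox5a (12.8%) and Uqcrc2 (19.7%).

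Ndufb9 was at 66.2, 54.0, 63.7 and 86.3 CPM in WT and 113, 73.6, 98.9 and 87.8 CPM in KO mice, so that KO mouse 2 fell inside the WT range. Its log2 fold change was 0.45 (SE 0.18, edgeR adjusted p = 0.326). Exons of Ndufb9 overlap Gm49356 on the same strand over 19.5% of their length, where strand information would not tell reads apart. Ndufa10 lies on chromosome 1 (92439010 to 92473860, minus strand). It was at 64.3, 63.8, 67.8 and 82.9 CPM in WT and 86.3, 88.8, 87.6 and 89.9 CPM in KO mice. The groups did not overlap and the SD of the KO mice was 1.52 CPM, but WT mouse 4 came close to them. Its log2 fold change was 0.33 (SE 0.16, edgeR adjusted p = 0.455). Ndufc2 was the highest gene of complex I per kilobase of exon in WT. With the principal transcript length Ndufa4 was highest (116, against 82.0 for Ndufc2). Ndufc2 had the lowest fold change in the complex: 54.4, 66.3, 46.2 and 57.1 CPM in WT and 63.0, 31.6, 31.7 and 45.9 CPM in KO mice. KO mouse 1 was inside the WT range, and the log2 fold change of Ndufc2 was −0.41 (SE 0.23, edgeR adjusted p = 0.511).

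Complex II has no subunit outside these 4 genes. Sdhb, the iron-sulfur subunit, was at 19.6, 19.9, 18.8 and 23.7 CPM in WT and 31.4, 22.8, 26.0 and 27.5 CPM in KO mice, with KO mouse 2 below WT mouse 4. Its log2 fold change was 0.38 (SE 0.25, edgeR adjusted p = 0.616). Sdha was at 440, 462, 489 and 480 CPM in WT and 553, 453, 627 and 428 CPM in KO mice, a log2 fold change of 0.14 (SE 0.12, adjusted p = 0.712). The KO mice spread to both sides of the WT mice. The anchor Sdhc was at 154 ± 11.6 CPM in WT and 139 ± 37.2 in KO (log2 fold change −0.18), and Sdhd at 169 ± 12.4 and 172 ± 32.6 (0.00). For all 4 genes the SD was larger among KO mice than among WT mice, a difference in spread that was not tested.

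In complex III all 8 genes were tested, 5 had a fold change above 1 and the median log2 value was 0.04 (0.15 without WT mouse 1, and −0.13 with counts thinned to the smallest library). The core proteins Uqcrc1 and Uqcrc2 had values of 0.03 and 0.05, and Uqcrc2 was among the most even members at 117 ± 3.79 CPM in WT and 121 ± 7.60 in KO. Small subunits lay on both sides. Uqcrq was at 11.3, 8.11, 9.99 and 14.2 CPM in WT and 19.7, 15.6, 14.1 and 21.7 CPM in KO mice. Its log2 fold change was 0.60 (SE 0.32, edgeR adjusted p = 0.478), with KO mouse 3 just under WT mouse 4. Uqcr10 had 0.39 (SE 0.28, edgeR adjusted p = 0.646). Uqcrb, which shares much of its sequence with copies elsewhere, was at 51.3, 43.9, 38.8 and 45.5 CPM in WT and 54.9, 32.0, 17.3 and 44.9 CPM in KO mice (log2 fold change −0.37, SE 0.28, edgeR adjusted p = 0.674). KO mouse 3 alone was far down, and without it the value was −0.04. Uqcrfs1, the Rieske iron-sulfur protein, was also lowest in KO mouse 3, at 43.9 CPM against 76.6 to 88.2 in the other KO mice and 54.6 to 110 in WT mice.

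Complex IV had the highest median log2 fold change, 0.31, and 10 of its 12 tested genes were above 1. Cox7b, a small subunit, lies on the X chromosome (106015700 to 106022450, plus strand). Its values were 83.0, 61.0, 58.6 and 84.9 CPM in WT and 116, 77.4, 129 and 81.9 CPM in KO mice, with KO mice 2 and 4 inside the WT range. Its log2 fold change was 0.50 (SE 0.19, edgeR adjusted p = 0.293). Cox6a1, one of the genes with an NRF1 core printed above, was at 41.6, 31.0, 23.1 and 26.5 CPM in WT and 48.9, 39.8, 45.7 and 40.7 CPM in KO mice. WT mouse 1 reached the KO range, and the log2 fold change was 0.52 (SE 0.22, edgeR adjusted p = 0.362). Cox8a had 0.46 (SE 0.23, edgeR adjusted p = 0.465) and Cox5a 0.45 (SE 0.23, edgeR adjusted p = 0.474). Cox4i1, the regulatory subunit, and Cox7a2l had negative values of −0.16 and −0.17. With Ndufa4, now often counted as a complex IV subunit, the median was 0.28 over 13 genes, and complex I without it kept 0.14.

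Complex V was represented by 16 tested genes of 17, of which 10 had a fold change above 1, with a median of 0.14 (0.02 without KO mouse 1). Leaving out Atp5s and Atp5sl, which are not subunits of the enzyme, the median stayed 0.14 over 14 genes. The 5 F1 head genes had a median of 0.13, and the member with the smallest p of all, Atp5b (chromosome 10, 128083273 to 128090391, plus strand), is one of them. It was at 1784, 1165, 1410 and 1432 CPM in WT and 1663, 1809, 1927 and 1973 CPM in KO mice. WT mouse 1 lay above KO mouse 1, and the other WT mice lay below all KO mice. Its log2 fold change was 0.35 (SE 0.11, edgeR adjusted p = 0.165). The adjusted p was 0.0478 in limma voom and 0.0110 in edgeR without the filter on low counts, and over all alternatives it ran up to 0.473, reached without WT mouse 2.

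Atp5a1, which forms the F1 hexamer with Atp5b, was at 849, 940, 811 and 1037 CPM in WT and 1086, 765, 945 and 825 CPM in KO mice. The groups lay within the same range, with a log2 fold change of −0.01 (SE 0.11, edgeR adjusted p = 0.989). Whether the fold changes of the 2 genes differ was not tested. The ratio of Atp5b to Atp5a1 per kilobase was 1.13, 1.75, 1.51 and 1.77 in KO mice 1 to 4, overlapping the WT ratios given above. Atp5c1 had 0.03, Atp5d, the delta subunit, 0.13 and Atp5e, the epsilon subunit, 0.20. In the membrane part, Atp5j2 encodes subunit f (chromosome 5, 145183698 to 145192062, minus strand). It was at 17.2, 17.6, 17.4 and 22.3 CPM in WT and 24.2, 27.0, 31.3 and 24.5 CPM in KO mice. Each KO mouse was above each WT mouse, by little for WT mouse 4, and the log2 fold change was 0.54 (SE 0.25, edgeR adjusted p = 0.412). Atp5g1 had the largest value of any member, 0.61 (SE 0.32, edgeR adjusted p = 0.486), at 13.7, 5.03, 12.7 and 10.0 CPM in WT and 15.3, 12.9, 18.7 and 18.01 CPM in KO mice. Atp5g3, the main ring gene here, had −0.04 (SE 0.16), at 143 ± 27.0 CPM in WT and 138 ± 24.3 in KO.

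**Figure D3:**
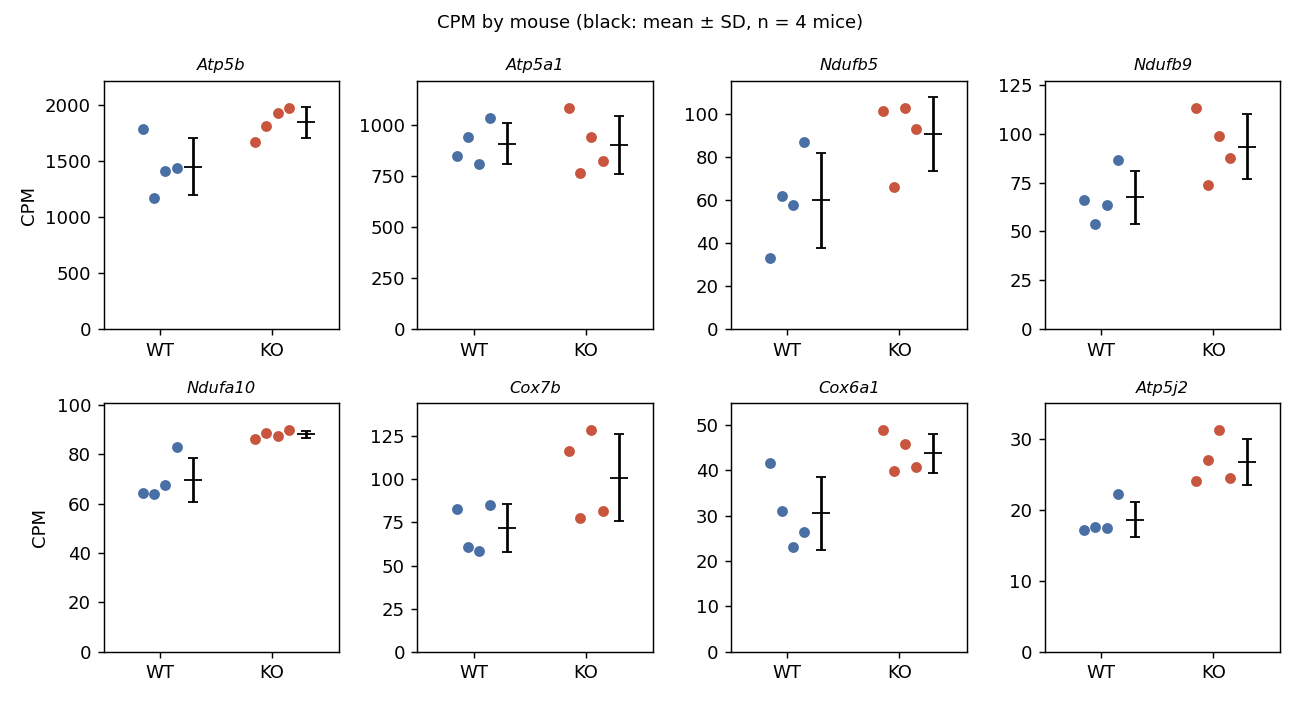
CPM by mouse (points) with the mean and SD over 4 mice (black) for Atp5b, its partner Atp5a1 and 6 accessory or small subunits; axes start at 0. Only Ndufa10 and Atp5j2 show no overlap between WT and KO, and WT mouse 4 is close to the KO mice in both.

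Summed per mouse, no complex separated the groups. Complex I totalled 733, 757, 749 and 903 CPM per kilobase in WT and 999, 784, 803 and 845 in KO mice, a mean of 785 ± 79.2 against 858 ± 97.5. WT mouse 4 exceeded every KO mouse but the first. Complex II was at 307 ± 13.4 and 319 ± 27.0, and complex III at 274 ± 24.0 and 272 ± 40.7. Complex IV was at 493, 413, 420 and 512 in WT and 629, 476, 591 and 490 in KO mice (460 ± 50.2 against 547 ± 75.0). KO mice 1 and 3 were above all WT mice, and KO mice 2 and 4 were not. Complex V, of which Atp5b and Atp5a1 together made most, was at 1073, 1013, 991 and 1168 in WT and 1267, 1085, 1171 and 1183 in KO mice (1061 ± 79.3 against 1176 ± 74.6). Here KO mouse 2 alone was below WT mouse 4. KO over WT was 1.09 for complex I, 1.04 for complex II, 0.993 for complex III, 1.19 for complex IV and 1.11 for complex V.

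**Figure D4:**
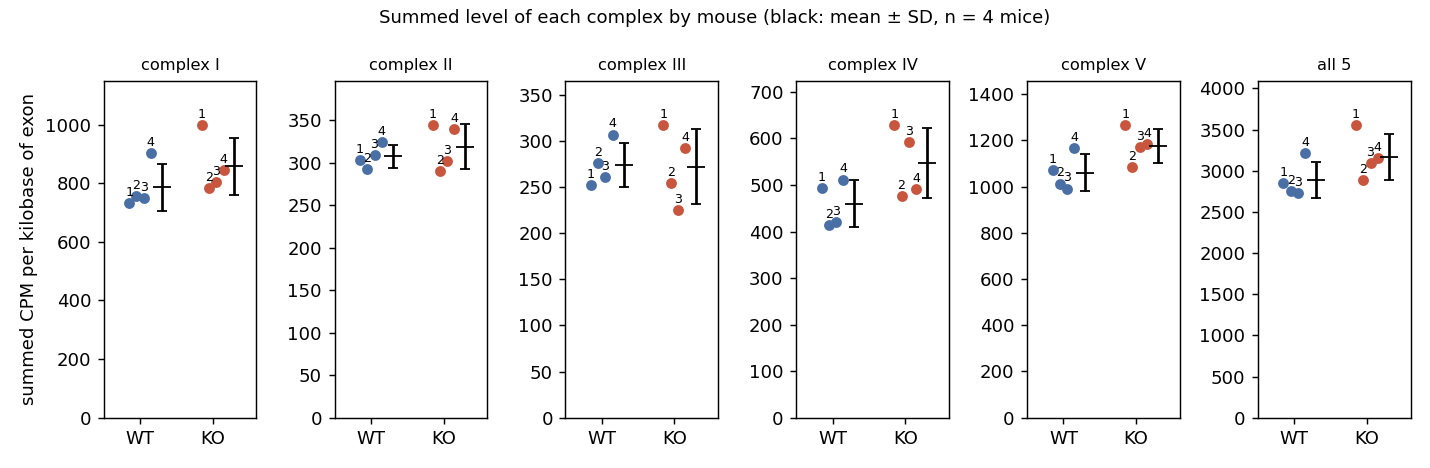
Summed CPM per kilobase of exon of each complex in each mouse (points, numbered by mouse) with the mean and SD over 4 mice (black); axes start at 0. WT and KO overlap in all 5 complexes, with KO mouse 1 highest in each.

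The differences between mice of 1 group were as large as those between groups. Centred on each gene's mean over the 8 mice, the median log2 level of the 75 members in order was −0.11, −0.12, −0.15 and 0.13 among WT and 0.24, −0.02, 0.05 and −0.01 in KO mice. KO mouse 1 held the highest value of 29 of 75 members, and WT mice 2 and 3 the lowest of 17 each. WT mouse 4 sided with the KO mice, above 3 of them. Genes of G2 and mitosis had centred medians of −0.13, −0.31, −0.24 and 0.11 in WT and 0.40, 0.06, −0.10 and 0.12 in KO mice, with KO mouse 1 highest and WT mouse 4 the highest of its group here too. All 16 listed mitotic genes were tested, 14 had a fold change above 1 and none was at 0. They summed to 3510 to 4601 CPM in WT and 4312 to 6095 CPM in KO. Their part in the members' values was not tested.

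**Figure D5:**
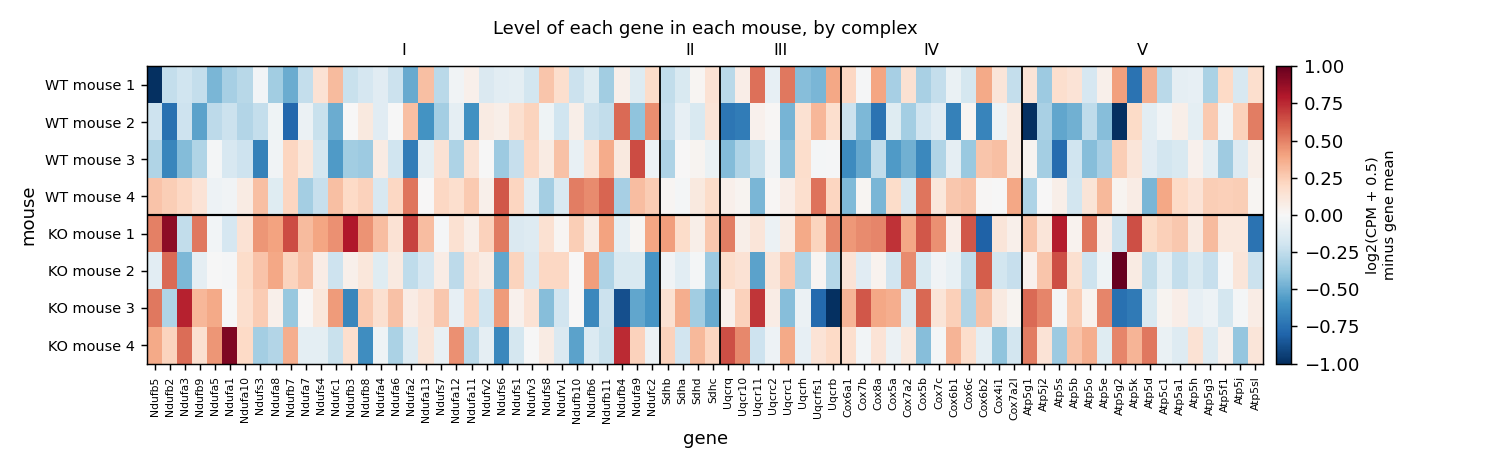
Level of 74 of the 75 tested genes (columns, by complex and then fold change) in each mouse (rows), as log2(CPM + 0.5) minus the gene's mean over 8 mice; red is above and blue below that mean. KO mouse 1, highest for 29 of all 75 genes, is mostly red across all 5 complexes, and WT mice 2 and 3 are mostly blue.

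Genes that build, serve or regulate the complexes were read from lists, and 0 of 72 tested genes in these lists passed the threshold of edgeR, against 0.583% of all genes. Without adjustment, 2 of 72 had a p under 0.05 and were higher and 1 was lower, below the 5.76% and 5.44% of all genes. Of the 15 complex I assembly factors and extra subunits tested, 14 had a fold change above 1, with a median log2 value of 0.29, and 0 reached an unadjusted p of 0.05. Ndufaf6, an assembly factor of the membrane arm, was at 4.54 ± 0.505 CPM in WT and 8.19 ± 3.10 in KO (log2 fold change 0.87, SE 0.44, edgeR adjusted p = 0.470), with KO mouse 2 inside the WT range. Complex II and III factors had 7 of 9 above 1 and a median of 0.17, and Sdhaf2, which attaches the flavin to Sdha, had −0.43 (edgeR adjusted p = 0.551). Complex V factors had 3 of 5 above 1 and a median of 0.07, with Usmg5, a small membrane subunit, at −0.41.

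Complex IV assembly factors had 11 of 18 above 1 and a median of 0.11. Pet100, needed for early assembly of cytochrome c oxidase, was at 16.5, 15.4, 13.5 and 17.7 CPM in WT and 42.2, 24.6, 20.5 and 29.3 CPM in KO mice. The groups did not overlap, KO mouse 1 stood highest, and the log2 fold change was 0.82 (SE 0.29, edgeR adjusted p = 0.254). Sco1, a copper chaperone chosen after its values were seen, did not overlap in the other direction, at 19.1 ± 2.27 CPM in WT and 13.8 ± 1.18 in KO (−0.43, edgeR adjusted p = 0.610). Sco2 and Pet117 were at 0 in all libraries. Cytochrome c, the nucleotide carriers and the other carriers had 8 of 10 above 1 and a median of 0.14. Among them Etfb, the electron transfer flavoprotein beta subunit, had −0.37 (edgeR adjusted p = 0.426).

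Of the regulators whose motifs were searched, Nrf1 was at 60.7 ± 11.8 CPM in WT and 60.9 ± 10.4 in KO, Gabpa at 436 ± 26.4 and 416 ± 39.6, and Yy1 at 109 ± 16.7 and 107 ± 14.1. Esrra rested on few reads, with 11, 7, 8 and 4 counts in WT and 10, 47, 26 and 44 counts in KO mice. KO mice 2 and 4 were high, KO mouse 1 and KO mouse 3 were inside the WT range in CPM, and the log2 fold change was 1.36 (SE 0.70, edgeR adjusted p = 0.473). Over the 15 regulators tested, 8 had a fold change above 1 and the median was 0.03, near the 0.00 of all genes.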

How the data were processed

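Reads from 8 stem cell libraries were mapped with STAR 2.4.0d-2 (build mm10, per the submitters' processing notes) and counted with htseq-count, per the labels' protocols. Each deposited table holds whole-number raw counts by symbol; annotation, strand setting and treatment of multiply placed reads are not given in sources used here. Genes were filtered with edgeR's filterByExpr (minimum count 10, total 15), scaled with TMM and tested with edgeR 4.0.16 (quasi-likelihood, genotype only, two-sided, Benjamini-Hochberg over 11498 genes, threshold 0.05) in R 4.3.3. Alternatives used DESeq2 1.42.0 and limma 3.58.1 (voom), other scalings and filters, length and GC offsets, counts thinned to 3594315 per library, a replicate block, and each library left out. CPM are counts divided by TMM-scaled totals, and lengths, coordinates and shared 50-base words came from GENCODE vM21 (GRCm38). Promoters came from RefSeq (GRCm38.p6).

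Any 2 replicate libraries differed by more than sampling noise. The labels name mice but no batch. Members and lists were chosen with earlier results of these data known. By rule the named genes were the 3 smallest p and the extreme levels in each complex, the Sdh genes and listed paralogue families. The rule also took members under the filter and the smallest p of each pathway list. Other genes were named outside this rule, among them Ndufv2, Uqcrc1, Uqcrc2, Cox5a, Atp5d, Atp5e and Sco1. The fit was tested on simulated data. The values of 1 member are not reported here and it is not drawn in the figures; counts and medians include it.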

Additional observations from a re-analysis of the deposited data

Results flagged for a closer look

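Groups of 4 mice were searched for a value standing apart (a gap to its nearest neighbour that takes up most of the group's range), and 3 of 82 groups had one, where chance gives about 1 in 20. Atp5j2 in WT mouse 4 was at 22.3 CPM, above the other WT mice. Uqcrh, the hinge protein of complex III, was at 60.9 CPM in WT mouse 1, below the other WT mice. The summed level of complex I in WT mouse 4 was 903 CPM per kilobase, above the other WT mice.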

How the results depend on the processing

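Over all genes 67 were called, 199 without the filter on low counts, 154 with DESeq2 and 35 to 70 with 1 mouse left out. Members called stayed at 0 apart from 1 (Atp5b) without the filter and 1 (Atp5b) in limma voom. The median log2 fold change of the members ran from 0.09 (without KO mouse 1) to 0.20 (without KO mouse 2) and was above 0 under each alternative run. The complex III median was −0.13 in thinned counts and 0.017 to 0.15 with 1 mouse left out, and the complex V median 0.021 to 0.17. The WT median level of 25.2 CPM per kilobase became 31.6 CPM with no length scaling and 36.5 with the principal transcript length. That length was chosen after seeing the data, as were the splits by shared words and by that length. Sdhd, at −0.0002, changed sign to 0.0144 without the filter, 0.0145 in DESeq2, 0.0179 in voom, 0.0019 with the replicate block and −0.11 to 0.12 with 1 mouse left out; the cause was not tested. The labels number mice 1 to 4 in both groups, but mice with the same number did not deviate together (correlations of −0.09, −0.01, −0.01 and −0.04) and did not each correlate best with their own number, so the numbers were not taken as pairs. The replicate block gave 57 calls over all genes and 0 among members, a median of 0.16 for the members, and changed no other call. With adjusted p at 0.1, 0 members were called. At totals from 3594315, genes with few counts such as Esrra and Atp5g2 had an SE of about 0.70.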
